A study of Mus musculus with 9 samples.

Results

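Microglia sorted from mouse brain 1 day after a neuromyelitis optica-like (NMO-like) lesion was induced were set against microglia of untreated mice. Genes were collected on which all 6 lesion libraries stood on the same side of all 3 untreated libraries, whatever the clodronate treatment. Of 12292 genes with enough reads to be tested, 681 (5.54%) had every injected library above every Normal library and 536 (4.36%) had every injected library below. Together they make 1217. Non-overlap of the libraries is how these genes were chosen and is a description. The test is separate. A gene is called here when its adjusted p is below 0.05 in edgeR's quasi-likelihood test of the mean of both injected groups minus Normal, over all tested genes. Of the genes above, 326 were also called higher, and of those below, 202 were also called lower, so 528 genes met both conditions. Levels are given as CPM, the reads of a gene per 1000000 reads of its library after scaling, in the order of replicates 1, 2 and 3. A rise or fall "on the log2 scale" is the log2 fold change of the injected mean against Normal, with its standard error (SE).

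The 9 libraries came from wild-type female C57BL/6N mice of 12 weeks, 3 libraries per group. Normal mice were untreated. NMO mice received 1 injection of NMO-IgG, the antibody of patients with neuromyelitis optica, together with human complement into the striatum of 1 hemisphere. NMO+CL mice received the same injection 6 h after clodronate liposomes into the abdominal cavity, an agent that kills phagocytes that take it up, monocytes of the blood among them. All 9 libraries share the sort of CD45+CD11b+P2ry12+ cells, so P2ry12 protein was a condition of entry in every group. The labels give a number of samples of 3 for each library and the study's methods describe pooled samples. One library thus holds more than 1 mouse, and the p-values measure the spread between such pools. No group injected with another antibody or without complement, and none given empty liposomes, was analysed here. The needle, the antibody and the complement cannot be told apart in the injected groups, nor clodronate from the liposome.

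Microglia are the resident macrophages of brain tissue. At rest they express a set of homeostatic genes, among them purine receptors that sense nucleotides leaking from damaged cells, and this set is lowered when the cells react. In NMO, IgG against the astrocyte water channel aquaporin-4 binds astrocytes and activates complement, which produces anaphylatoxins read by receptors on myeloid cells. Reacting macrophages can turn on scavenger receptors for debris and lipids, chemokines and cytokines that call in blood leukocytes, and the machinery that makes ribosomes before growth.

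The libraries held 5788234 to 7837219 counted reads, and totals did not separate the groups. Genes detected numbered 12750 ± 260 (SD, n = 6) in injected and 13788 ± 457 (SD, n = 3) in Normal libraries, lower in all 6 (exact two-sided permutation test, p = 0.0238, the smallest that 6 against 3 allows). The share of reads on the ribosomal RNA entry Rn45s was 21.4% ± 3.61 (SD, n = 6) in injected against 23.1% ± 7.48 (SD, n = 3) in Normal libraries (exact permutation p = 0.619). All 10 microglia markers were detected in every group, Cx3cr1 for example at 10739 to 12549 CPM in Normal and 6898 to 12791 CPM in the injected libraries. Of these 10, 5 were called lower (P2ry12, Siglech, Sall1, Olfml3 and Gpr34) and none higher, beside 2.51% lower over all tested genes. All 10 had a log2 fold change below 0, with a median of -0.555. Their sum was 34200 to 38800 CPM in Normal, 29400 to 34200 in NMO and 19900 to 27600 in NMO+CL. Of 10 monocyte markers none was called, and their summed level was 44.7 to 81.1 CPM in Normal, 40.7 to 98.8 in NMO and 61.0 to 97.2 in NMO+CL. Their median log2 fold change was 0.756, with 7 above 0 and 3 below. With 3.2% called higher over all tested genes, no call among 10 markers does not show that monocyte RNA was absent. The 11 neutrophil markers with reads summed, over the 10 tested, to 551, 41.5 and 47.5 CPM in Normal, 279, 116 and 398 CPM in NMO and 1388, 290.2 and 528 CPM in NMO+CL. None was called, all 10 had a log2 fold change above 0 and their median was 0.70. S100a8, S100a9 and Ngp had reads in every library, Lcn2 had 94, 0 and 1 reads in Normal and 89 to 503 in injected libraries, and the granule gene Elane had 0 in 6 of the 9. Astrocyte markers gave 1 call of 5 tested, lower (Slc1a3), and neuron markers 1 of 3, lower (Meg3), while border macrophage, lymphocyte, oligodendrocyte and endothelial markers gave none. The astrocyte sum was 168 to 214 CPM in Normal, 103 to 133 in NMO and 82.6 to 127 in NMO+CL. All 4 tested oligodendrocyte markers (median -1.21), all 3 neuron markers (median -2.74) and both tested lymphocyte markers had a log2 fold change below 0. Of 6 tested border macrophage and 6 tested endothelial markers, 4 each were below 0 and 2 above. Slc1a3 was not called without Normal 2 or 3 or NMO+CL 2 (adjusted p = 0.0526 to 0.170), with library totals alone (adjusted p = 0.0624) and with 1 injected group (adjusted p = 0.0643). Meg3, a long noncoding RNA of neurons, was at 169.7, 9.93 and 13.8 CPM in Normal, with Normal 1 far above every other library, and at 3.83 to 19.7 CPM in the injected libraries. Meg3 fell by 2.94 on the log2 scale (SE 0.61, adjusted p = 0.00789). Meg3 was not called without Normal 1 (adjusted p = 0.776), with limma-voom (adjusted p = 0.164), with 1 injected group (adjusted p = 0.0511) and with the replicate block (adjusted p = 0.0593). Meg3 had a log2 fold change of -1.83 with limma-voom, -2.14 replicate block and -0.50 without Normal 1. Fewer cells of a type in a sort and less RNA per cell cannot be told apart in these libraries.

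Across all tested genes, 393 (3.2%) were called higher and 309 (2.51%) lower in the injected libraries, with 2255 genes at an unadjusted p under 0.05 where chance alone gives 615. Of the genes called higher, 326 (83.0%) had no overlap between injected and Normal libraries, and of the genes called lower 202 (65.4%). The split of calls between higher and lower depended on how libraries were scaled and tested. With trimmed-mean (TMM) scaling 56.0% of calls were higher, against 68.6% (465 higher, 213 lower) with library totals alone and 45.0% (332 higher, 406 lower) with limma-voom. Without Normal 1, 2 or 3 the calls numbered 354, 340 and 275. Of these, 329, 333 and 269 were among the 702 genes called with all libraries. With the 6 injected libraries fitted as 1 injected group, 197 genes were called higher and 37 lower.

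The difference between NMO+CL and NMO was tested in the same fit, as a contrast orthogonal to the mean of both. In it 196 genes (1.59%) were called over the whole table. Of the 393 genes called higher, 39 (9.92%) were called further up in NMO+CL than in NMO. Of the 309 called lower, 95 (30.7%) were called further down. None of either set was called back towards Normal. The 95% interval of the difference lay within 1 log2 unit either way for 176 of the genes called higher (44.8%) and 66 of those called lower (21.4%), against 31.1% of all tested genes. Median log2 fold changes of the genes called higher were 0.96 in NMO and 1.40 in NMO+CL, and of the genes called lower -0.58 in NMO and -1.47 in NMO+CL, each against the same Normal libraries. A call in the mean of both groups can therefore rest mainly on NMO+CL. The 134 calls shared with this difference fell to 79, 80 and 66 without Normal 1, 2 and 3, to 45 without NMO 1 and to 38 without NMO+CL 2.

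**Figure D1:**
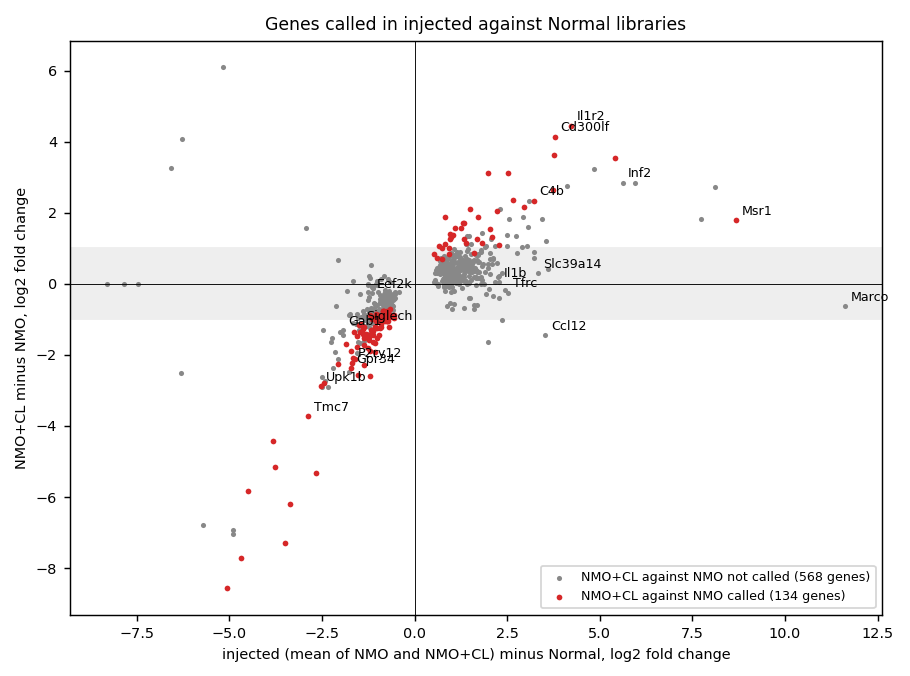
Each point is 1 of the 702 genes called in injected against Normal libraries, with the injected minus Normal log2 fold change on the horizontal axis and the NMO+CL minus NMO log2 fold change on the vertical axis. Red points were also called between NMO+CL and NMO, and the grey band spans differences within 1 log2 unit. Genes called higher sit mostly in or near the band. The median difference of the genes called lower was -0.883, inside the band, and part of them trail downwards out of it.

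At the edge of the selection the separation was narrow. Among called genes, Csrp2bp (30.3 to 61.7 CPM in Normal and 61.8 to 132 CPM in the injected libraries) and 2700038G22Rik (5.12 to 7.65 CPM in Normal and 7.68 to 33.8 CPM in the injected libraries) lay just inside on the upper side. On the lower side Sft2d2 (209 to 285 CPM in Normal and 58.00 to 208 CPM in the injected libraries) and Sgce (59.4 to 99.8 CPM in Normal and 16.8 to 59.3 CPM in the injected libraries) lay just inside. Just outside lay P2ry2, a nucleotide receptor with no read in any Normal library and none in NMO 3, and Tmem132a (85.1 to 89.99 CPM in Normal and 89.7 to 216 CPM in the injected libraries). On the lower side these were Yipf4 (31.3 to 35.2 CPM in Normal and 8.02 to 31.4 CPM in the injected libraries) and Tmem86a (336 to 468 CPM in Normal and 120.4 to 337 CPM in the injected libraries). These are given as a description of the boundary. Their adjusted p ran from 9.65e-04 (Sft2d2) to 0.0487 (Yipf4), and each call could be lost. Csrp2bp was not called without Normal 1 or 3 or NMO 1 (adjusted p = 0.0592 to 0.176) and with 1 injected group (adjusted p = 0.0611). 2700038G22Rik was not called without Normal 1, 2 or 3, NMO 1 or 2 or NMO+CL 1 (adjusted p = 0.0579 to 0.166), with limma-voom (adjusted p = 0.119) and with 1 injected group (adjusted p = 0.0611). Sft2d2 was not called with 1 injected group (adjusted p = 0.180). Sgce was not called without Normal 2 or 3 or NMO 1 (adjusted p = 0.0562 to 0.195) and with 1 injected group (adjusted p = 0.132). P2ry2 was not called without Normal 1, 2 or 3 (adjusted p = 0.0561 to 0.0613) and with limma-voom (adjusted p = 0.113). Tmem132a was not called without Normal 1, 2 or 3, NMO 1 or 2 or NMO+CL 2 (adjusted p = 0.0511 to 0.138) and with 1 injected group (adjusted p = 0.0897). Yipf4 was not called without Normal 1, 2 or 3, NMO 1 or 3 or NMO+CL 1, 2 or 3 (adjusted p = 0.0510 to 0.177), with library totals alone (adjusted p = 0.0785) and with 1 injected group (adjusted p = 0.148). Tmem86a was not called without Normal 3 (adjusted p = 0.0541) and with 1 injected group (adjusted p = 0.115).

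The scavenger receptors Marco and Msr1, class A receptors with which macrophages bind debris, modified lipoproteins and microbes, gave the widest gaps between the groups. Marco (chr1:120474538-120505024 in GRCm38) had no read in any Normal library and stood at 116, 75.4 and 26.3 CPM in NMO and 49.3, 59.5 and 32.3 CPM in NMO+CL. All 6 injected libraries were thus above the 3 Normal libraries, where it was undetected. The rise was at least 125-fold when each Normal library is set to its floor of 3 reads (adjusted p = 1.40e-05). Msr1 (chr8:39581685-39642673) was at 0.478, 0 and 0.673 CPM in Normal, 119, 101 and 40.03 CPM in NMO and 295, 364 and 239 CPM in NMO+CL, with at most 4 reads in a Normal library. Msr1 rose by 8.69 on the log2 scale (SE 0.54, adjusted p = 1.15e-07). Msr1 had a log2 fold change of 8.09 without Normal 2 and 9.32 without Normal 3. Both injected groups were far above Normal for both receptors. Msr1 was higher again in NMO+CL than in NMO (log2 difference 1.79, 95% interval 1.06 to 2.51, adjusted p = 0.0131). For Marco the interval ran from -1.54 to 0.28 (adjusted p = 0.609). Of the 15 scavenger receptors tested, 3 were called higher and none lower, beside 3.2% higher and 2.51% lower over all tested genes, with a median log2 fold change of 0.13 against -0.04 over all tested genes. The other call was Cxcl16, a membrane chemokine that also binds oxidised lipoprotein (37.3 to 61.4 CPM in Normal and 61.8 to 146 CPM in the injected libraries). Cxcl16 rose by 0.99 on the log2 scale (SE 0.28, adjusted p = 0.0484). Cxcl16 was not called without Normal 1, 2 or 3, NMO 1 or 2 or NMO+CL 1 or 2 (adjusted p = 0.0611 to 0.248), with limma-voom (adjusted p = 0.0525) and with 1 injected group (adjusted p = 0.0987). The class B receptor Cd36 overlapped between groups at 6.23 to 12.6 CPM in Normal and 0.126 to 17.7 CPM in the injected libraries (adjusted p = 0.931). Scarf2 was at 3.20 to 9.33 CPM in Normal, 11.3 to 18.6 in NMO and 4.52 to 9.07 in NMO+CL (adjusted p = 0.559), with its NMO libraries above and its NMO+CL libraries overlapping Normal.

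**Figure D2:**
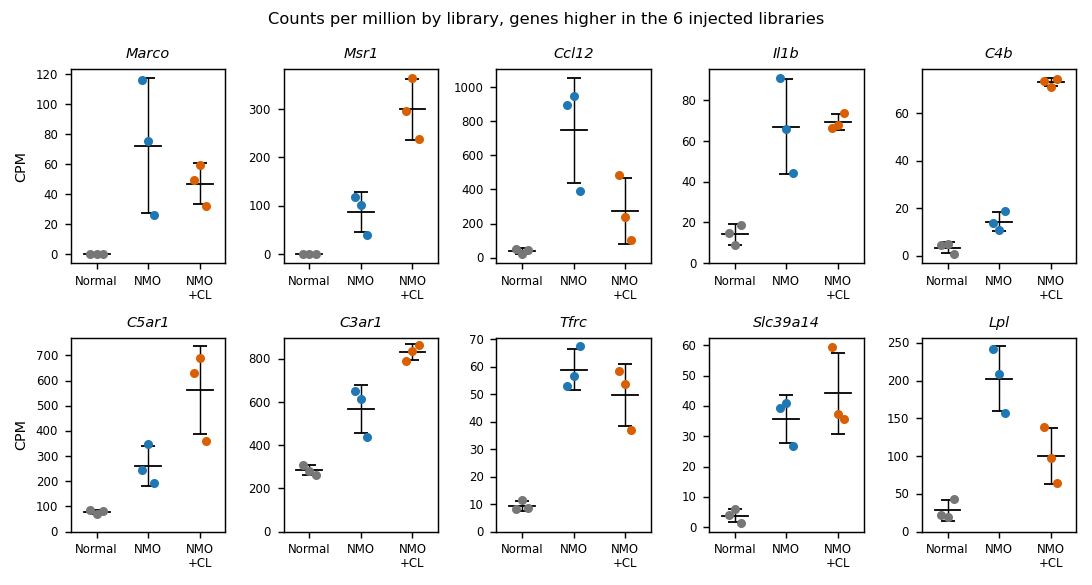
CPM by library for 10 genes higher in the injected libraries, 1 panel per gene with its own axis; points are libraries, bars the group mean and whiskers 1 SD (n = 3). In every panel each blue (NMO) and orange (NMO+CL) point is above all grey (Normal) points, and Marco and Msr1 are at or near 0 in Normal.

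Chemokines gave calls in both directions. Of 14 tested, 3 were called higher (Ccl12, Ccl2, Cxcl16) and 2 lower (Ccl6, Ccl9), with a median of 0.365, beside 3.2% called higher and 2.51% called lower over all tested genes. Ccl12, a ligand of the monocyte receptor Ccr2, was at 51.9, 19.9 and 45.4 CPM in Normal, 897, 947 and 394 CPM in NMO and 485, 236 and 102 CPM in NMO+CL. Every injected library was above the highest Normal library. Ccl12 rose by 3.53 on the log2 scale (SE 0.46, adjusted p = 2.35e-04). The NMO libraries were mostly above the NMO+CL libraries, although the difference between the injected groups was not called (log2 difference -1.44, adjusted p = 0.129). Ccl2, the best known ligand of that receptor, was at 4.94, 5.87 and 13.96 CPM in Normal, 62.2, 95.4 and 16.7 CPM in NMO and 25.5, 15.4 and 14.7 CPM in NMO+CL, so that NMO+CL libraries cleared the highest Normal library by a small margin. Ccl2 rose by 1.99 on the log2 scale (SE 0.50, adjusted p = 0.0233). Ccl2 was not called without Normal 1 or 2 or NMO 2 (adjusted p = 0.0502 to 0.136), with limma-voom (adjusted p = 0.129) and with 1 injected group (adjusted p = 0.0861). Ccl2 had a log2 fold change of 2.59 without Normal 3. Ccl7, another ligand from the same cluster of genes, was higher in all 3 NMO libraries (34.2, 31.1 and 11.8 CPM) and lower in all 3 NMO+CL libraries (2.92, 2.27 and 1.28 CPM) than in any Normal library (4.14, 8.43 and 3.87 CPM), and so fails the selection (pooled adjusted p = 0.746). Neither group alone was called against Normal (adjusted p = 0.119 and 0.196), while NMO+CL minus NMO was -3.56 (adjusted p = 0.00789). The microglial chemokines Ccl3 (165 to 221 CPM in Normal and 125 to 303 CPM in the injected libraries) and Ccl4 (121 to 161 CPM in Normal and 82.8 to 254 CPM in the injected libraries) overlapped between groups. So did Ccl5 (1.59 to 6.73 CPM in Normal and 3.90 to 15.7 CPM in the injected libraries). For Cxcl10 (0.797 to 12.96 CPM in Normal, 7.42 to 18.4 in NMO and 14.3 to 26.6 in NMO+CL) NMO overlapped with Normal and NMO+CL lay above it. Adjusted p of these 4 ran from 0.275 to 0.850. Ccl6 was lower in the injected libraries (142 to 181 CPM in Normal and 70.5 to 122 CPM in the injected libraries). Ccl6 fell by 0.73 on the log2 scale (SE 0.17, adjusted p = 0.0168). Ccl6 was not called without Normal 1 or 3 (adjusted p = 0.0670 to 0.106) and with 1 injected group (adjusted p = 0.0660).

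Among cytokines and their receptors the clearest shared rise was that of Il1b (chr2:129364570-129371139), which encodes interleukin-1 beta. It was at 14.98, 8.73 and 18.8 CPM in Normal, 91.2, 65.7 and 44.5 CPM in NMO and 66.5, 67.7 and 73.8 CPM in NMO+CL, with the lowest injected library more than 2-fold above the highest Normal one. Il1b rose by 2.27 on the log2 scale (SE 0.31, adjusted p = 3.05e-04). NMO and NMO+CL did not differ by a call, and the interval of their difference was -0.60 to 0.70. Il4ra, the receptor chain for interleukin-4 and interleukin-13, was at 145, 209 and 231 CPM in Normal, 407, 285 and 527 CPM in NMO and 838, 976 and 1134 CPM in NMO+CL. Il4ra rose by 1.69 on the log2 scale (SE 0.21, adjusted p = 1.96e-04). All injected libraries were above Normal, and NMO+CL was above NMO (log2 difference 1.27, adjusted p = 0.00877). Il1r2, a decoy receptor that binds interleukin-1 without signalling, was at 0, 0 and 1.68 CPM in Normal, 2.51, 1.80 and 2.40 CPM in NMO and 23.1, 118 and 6.41 CPM in NMO+CL. Against Normal the log2 fold change was 2.01 in NMO and 6.46 in NMO+CL (pooled 4.23, adjusted p = 0.0211), and NMO alone was not called (adjusted p = 0.622). Il1r2 was not called without Normal 1 or 2 or NMO+CL 2 (adjusted p = 0.106 to 0.166), with limma-voom (adjusted p = 0.370) and with 1 injected group (adjusted p = 0.0897). Il1r2 had a log2 fold change of 5.12 with limma-voom, 5.52 with 1 injected group, 3.64 without Normal 2, 9.17 without Normal 3 and 3.34 without NMO+CL 2. With 10 reads in Normal 3 and none in Normal 1 and 2, a fitted value without Normal 3 depends on the prior count. The highest Il1r2 library, NMO+CL 2, had a summed neutrophil marker level of 290.2 CPM. NMO+CL 1, with the highest neutrophil sum of 1388 CPM, had less Il1r2, and the part of such cells in the result was not tested. Tnf was at 16.5 to 26.9 CPM in Normal, 20.7 to 47.5 in NMO and 37.95 to 75.01 in NMO+CL with 1 NMO library inside the Normal range (adjusted p = 0.0653). NMO+CL alone was called against Normal (log2 1.37, adjusted p = 0.0219). Il6 overlapped at 2.69 to 7.81 CPM in Normal and 0 to 7.42 CPM in the injected libraries (adjusted p = 0.790). Over the 30 tested genes of this list 3 were called higher and 1, the interleukin-6 receptor gene Il6ra, lower, with a median of 0.05. The shares over all tested genes were 3.2% and 2.51%.

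The anaphylatoxin receptors C5ar1 and C3ar1 were higher in every injected library than in any Normal library, and a further receptor of C5a, C5ar2, was not. C5ar1 (chr7:16246743-16259540), the receptor of the anaphylatoxin C5a, was at 86.05, 70.1 and 79.8 CPM in Normal, 245, 348 and 192 CPM in NMO and 632, 691 and 362 CPM in NMO+CL. C5ar1 rose by 2.28 on the log2 scale (SE 0.24, adjusted p = 6.39e-05). C3ar1 (chr6:122847138-122856161), the receptor of C3a, was at 310.3, 278 and 264 CPM in Normal, 652, 612 and 439.6 CPM in NMO and 791, 836 and 865 CPM in NMO+CL. C3ar1 rose by 1.27 on the log2 scale (SE 0.16, adjusted p = 2.25e-04). Neither gene overlapped between injected and Normal. C5ar2 was at 99.1 to 123 CPM in Normal, 51.6 to 137 in NMO and 148 to 153 in NMO+CL and was not called (adjusted p = 0.892), nor was NMO+CL alone (adjusted p = 0.443), although its libraries lay above Normal. C5ar1 was higher again in NMO+CL than in NMO (log2 difference 1.10, adjusted p = 0.0318). For C3ar1 that difference was 0.55 (adjusted p = 0.161). C4b, a component of the classical pathway, was at 4.62, 4.97 and 0.673 CPM in Normal, 13.8, 10.8 and 18.7 CPM in NMO and 73.7, 71.1 and 74.5 CPM in NMO+CL. C4b rose by 3.23 on the log2 scale (SE 0.46, adjusted p = 4.54e-04). It was above Normal in all 6 injected libraries, by 2.06 in NMO and 4.40 in NMO+CL on the log2 scale, and NMO alone was not called (adjusted p = 0.0655). NMO+CL was above NMO (log2 difference 2.34, adjusted p = 0.0129). Reads of C4b cannot be parted with certainty from those of its near copy C4a. The central component C3 was at 3.46 to 7.33 CPM in Normal, 3.20 to 6.79 in NMO and 11.8 to 14.7 in NMO+CL (adjusted p = 0.582). Its NMO libraries overlapped with Normal and its NMO+CL libraries lay above it, without a call (log2 1.42, adjusted p = 0.187). Of 21 complement genes tested these 3 were called higher and none lower, with a median of 0.34, beside 3.2% higher and 2.51% lower over all tested genes. Among 12 Fc receptors and adaptors, which bind IgG and pass on its signal, 2 were called higher and none lower, beside 3.2% higher and 2.51% lower over all tested genes, and Fcgr4 is 1 of them. Fcgr4, an activating receptor for IgG, was at 18.2, 6.77 and 9.76 CPM in Normal, 49.5, 64.04 and 12.2 CPM in NMO and 165, 235 and 165 CPM in NMO+CL, with NMO 3 inside the Normal range. It is therefore outside the selection and was named after its values were seen. Fcgr4 rose by 2.94 on the log2 scale (SE 0.44, adjusted p = 6.77e-04).

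Receptors for microbial and damage products gave 2 rises and 1 fall of 24 tested, beside 3.2% higher and 2.51% lower over all tested genes. Tlr2, which senses lipoproteins, was at 29.2 to 53.1 CPM in Normal and 67.1 to 191 CPM in the injected libraries. Tlr2 rose by 1.39 on the log2 scale (SE 0.29, adjusted p = 0.00917). Tlr13, which senses bacterial ribosomal RNA, was at 67.3 to 94.02 CPM in Normal and 98.6 to 166 CPM in the injected libraries. Tlr13 rose by 0.77 on the log2 scale (SE 0.21, adjusted p = 0.0385). Irak2, a kinase downstream of such receptors, was lower at 49.6 to 73.2 CPM in Normal and 23.5 to 41.4 CPM in the injected libraries. Irak2 fell by 0.87 on the log2 scale (SE 0.24, adjusted p = 0.0392). Each of these calls could be lost. Tlr2 was not called without Normal 2 or 3 (adjusted p = 0.0529 to 0.0753). Tlr13 was not called without Normal 2 or 3, NMO 2 or 3 or NMO+CL 1 or 2 (adjusted p = 0.0588 to 0.200) and with 1 injected group (adjusted p = 0.0831). Irak2 was not called without Normal 1, 2 or 3, NMO 1 or 3 or NMO+CL 1 or 2 (adjusted p = 0.0556 to 0.274), with library totals alone (adjusted p = 0.0806), with 1 injected group (adjusted p = 0.0897) and with the replicate block (adjusted p = 0.0564). Irak2 shares its 3′ sequence with 40 other genes. Of 29 genes of TNF and NF-kB signalling, Bcl3, a nuclear partner of NF-kB (0.673 to 8.13 CPM in Normal and 14.2 to 39.5 CPM in the injected libraries), and the inhibitor gene Nfkbia were called higher and none lower, beside 3.2% and 2.51% over all tested genes. Bcl3 rose by 2.77 on the log2 scale (SE 0.62, adjusted p = 0.0129). Bcl3 was not called without Normal 2 or 3 (adjusted p = 0.0672 to 0.0758). Bcl3 had a log2 fold change of 3.48 with limma-voom and 4.57 without Normal 1. Interferon-stimulated genes gave 2 rises of 33 tested with a median of -0.06, beside 3.2% over all tested genes. These were Slfn2 (10.7 to 28.1 CPM in Normal and 37.1 to 89.4 CPM in the injected libraries) and Ifitm3 (17.8 to 25.8 CPM in Normal and 42.9 to 98.3 CPM in the injected libraries). Slfn2 rose by 1.74 on the log2 scale (SE 0.32, adjusted p = 0.00343). Ifitm3 rose by 1.45 on the log2 scale (SE 0.30, adjusted p = 0.00704). Ifitm3 was not called without Normal 3 (adjusted p = 0.0631).

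Of 21 tested genes of iron and zinc handling, 5 were called higher and 1 lower, with a median of 0.52, beside 3.2% higher and 2.51% lower over all tested genes. Tfrc (chr16:32608920-32632794), the transferrin receptor that brings iron into cells, was at 8.29, 11.6 and 8.41 CPM in Normal, 52.9, 56.5 and 67.6 CPM in NMO and 58.4, 53.8 and 36.99 CPM in NMO+CL. Tfrc rose by 2.52 on the log2 scale (SE 0.29, adjusted p = 1.03e-04). Slc39a14 (chr14:70303469-70351425), a zinc and iron importer, was at 4.14, 6.02 and 1.51 CPM in Normal, 39.4, 41.1 and 26.7 CPM in NMO and 59.5, 37.3 and 35.7 CPM in NMO+CL. Slc39a14 rose by 3.34 on the log2 scale (SE 0.42, adjusted p = 1.99e-04). Both injected groups stood apart from Normal without overlap, and neither gene was called between them. The NMO+CL minus NMO interval was -0.84 to 0.35 for Tfrc and -0.53 to 1.14 for Slc39a14. Slc40a1 (chr1:45908068-45926523), ferroportin, the iron exporter of mammalian cells, moved the other way, at 152, 129 and 137 CPM in Normal, 67.5, 71.8 and 82.9 CPM in NMO and 29.3, 23.8 and 45.6 CPM in NMO+CL. Slc40a1 had a log2 fold change of -1.50 (SE 0.20, adjusted p = 3.26e-04). NMO alone was not called against Normal (log2 -0.91, adjusted p = 0.128), and NMO+CL was lower than NMO (log2 difference -1.17, adjusted p = 0.0249). The other rises were those of an iron store subunit, a ferroxidase and a zinc transporter. Fth1, of the iron store, was at 591 to 691 CPM in Normal, 883 to 1073 in NMO and 841 to 1930 in NMO+CL. Fth1 rose by 0.87 on the log2 scale (SE 0.20, adjusted p = 0.0172). Cp, the ferroxidase ceruloplasmin, was at 6.90 to 11.9 CPM in Normal, 23.9 to 46.3 in NMO and 13.8 to 28.7 in NMO+CL. Cp rose by 1.59 on the log2 scale (SE 0.37, adjusted p = 0.0169). Slc39a1, the zinc transporter, was at 92.4 to 116 CPM in Normal, 133 to 143 in NMO and 217 to 229 in NMO+CL. Slc39a1 rose by 0.71 on the log2 scale (SE 0.16, adjusted p = 0.0164). Fth1 was not called without Normal 1, 2 or 3 (adjusted p = 0.0573 to 0.111) and with 1 injected group (adjusted p = 0.0836). Cp was not called without Normal 1 or 3 or NMO 1 (adjusted p = 0.0511 to 0.121) and with limma-voom (adjusted p = 0.0616). Slc39a1 was not called without Normal 2 or 3 (adjusted p = 0.0649 to 0.123) and with 1 injected group (adjusted p = 0.107). The last exons of Cp and of Hps3 lie on opposite strands of the same stretch, and strand use in the counting is not given in the sources used here.

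Ribosome biogenesis was the list with the most rises. Of 39 tested genes for making ribosomes, 23 were called higher and none lower, against 3.2% higher over all genes, with a median log2 fold change of 1.03. Of the 23, 20 had every injected library above every Normal library. The summed level of the 39 genes was 1909, 2379 and 2097 CPM in Normal, 4083, 4025 and 3691 CPM in NMO and 4945, 5905 and 5255 CPM in NMO+CL. The sum was higher in all 6 injected libraries, and every NMO+CL library was above every NMO library. Not 1 of the 39 genes was called between NMO+CL and NMO, and for 13 of the 23 the interval of that difference lay within 1 log2 unit. Over all tested genes 1.59% were called in that difference, so no call among 39 says little about the list. Such an interval was found for 31.1% of all tested genes and 44.8% of those called higher. The median NMO+CL minus NMO difference of the list was 0.408, against -0.005 over all tested genes.

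**Figure D3:**
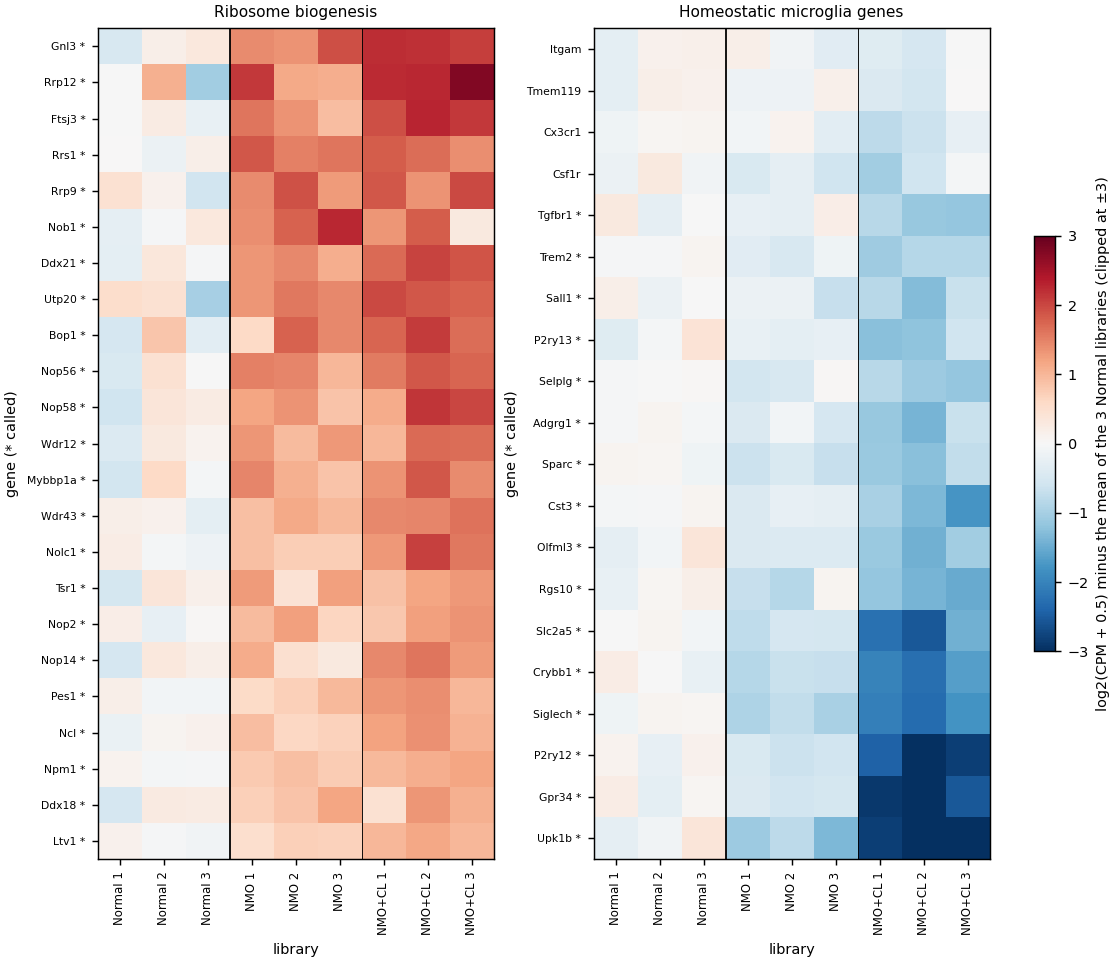
Rows are the genes called or described in the text among the ribosome biogenesis genes (left, 23 rows) and the homeostatic microglia genes (right, 20 rows), columns the 9 libraries, and colour the log2(CPM + 0.5) minus the mean of the 3 Normal libraries; an asterisk marks genes called in injected against Normal. The left panel is red over both injected groups, while the right panel is pale in NMO and blue in NMO+CL.

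The members cover successive stages of the work. Ddx21 (chr10:62580251-62602281), an RNA helicase at ribosomal DNA and early pre-rRNA, was at 145, 224 and 174 CPM in Normal, 448, 487 and 378 CPM in NMO and 576, 724 and 662 CPM in NMO+CL. Ddx21 rose by 1.56 on the log2 scale (SE 0.18, adjusted p = 1.07e-04). Gnl3, nucleostemin, a nucleolar GTPase, was at 35.2, 55.98 and 61.2 CPM in Normal, 132, 127 and 191 CPM in NMO and 230.4, 226 and 208 CPM in NMO+CL. Gnl3 rose by 1.84 on the log2 scale (SE 0.22, adjusted p = 1.28e-04). Rrs1, needed to assemble the large subunit, was at 14.98, 13.1 and 16.99 CPM in Normal, 55.8, 43.3 and 46.1 CPM in NMO and 53.5, 48.4 and 40.03 CPM in NMO+CL. Rrs1 rose by 1.67 on the log2 scale (SE 0.26, adjusted p = 0.00110). In each of these genes the injected libraries averaged over 2-fold above the Normal libraries without overlap, and for Rrs1 the NMO+CL minus NMO difference was -0.03 (interval -0.61 to 0.55). Ftsj3, a methyltransferase of pre-rRNA, was at 55.02 to 76.8 CPM in Normal and 122 to 316 CPM in the injected libraries. Ftsj3 rose by 1.71 on the log2 scale (SE 0.20, adjusted p = 1.25e-04). The abundant nucleolar proteins Ncl (nucleolin) and Npm1 (nucleophosmin) rose less, by 0.98 and 0.95 on the log2 scale (adjusted p = 9.59e-04 and 0.00253). Rrp12 (2.52 to 12.6 CPM in Normal and 12.8 to 42.6 CPM in the injected libraries) and Rrp9 (5.05 to 10.8 CPM in Normal and 19.7 to 32.03 CPM in the injected libraries), both of pre-rRNA processing, started from lower levels. Rrp12 rose by 1.80 on the log2 scale (SE 0.47, adjusted p = 0.0303). Rrp9 rose by 1.65 on the log2 scale (SE 0.38, adjusted p = 0.0144). Rrp12 was not called without Normal 1 or 3, NMO 1 or NMO+CL 2 (adjusted p = 0.0507 to 0.165), with limma-voom (adjusted p = 0.0575) and with 1 injected group (adjusted p = 0.0767). Rrp12 had a log2 fold change of 2.56 without Normal 2. Rrp9 was not called without Normal 2 or 3 (adjusted p = 0.0639 to 0.107). The 3′ end of Gnl3 shares sequence with 34 and that of Ftsj3 with 106 other annotated genes, and reads with several alignments were counted.

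Outside that list, 5 genes named for the size or the gap of their change belong to translation, nucleotide supply and mitochondria. Eef1g, a subunit of the elongation factor that delivers transfer RNA, was at 39.8, 47.9 and 47.6 CPM in Normal, 131, 131 and 142 CPM in NMO and 190.3, 193 and 125 CPM in NMO+CL. Eef1g rose by 1.74 on the log2 scale (SE 0.20, adjusted p = 1.07e-04). Rps2, a ribosomal protein of the small subunit, was at 32.7, 40.6 and 37.4 CPM in Normal, 73.3, 118 and 126 CPM in NMO and 203, 112 and 80.7 CPM in NMO+CL. Rps2 rose by 1.68 on the log2 scale (SE 0.28, adjusted p = 0.00186). Impdh2, the rate-limiting enzyme of guanine nucleotide synthesis, was at 4.30, 5.42 and 4.37 CPM in Normal, 17.6, 24.3 and 21.5 CPM in NMO and 37.1, 17.5 and 19.9 CPM in NMO+CL. Impdh2 rose by 2.28 on the log2 scale (SE 0.41, adjusted p = 0.00326). All 3 genes were about 3-fold or more above Normal with no overlap and no call between the injected groups. Snhg1, a host gene of small nucleolar RNAs, was at 8.61 to 23.4 CPM in Normal and 40.8 to 84.1 CPM in the injected libraries. Snhg1 rose by 2.05 on the log2 scale (SE 0.33, adjusted p = 0.00153). Abhd11, a mitochondrial hydrolase, was at 6.62 to 8.13 CPM in Normal and 22.8 to 34.3 CPM in the injected libraries. Abhd11 rose by 1.87 on the log2 scale (SE 0.35, adjusted p = 0.00388). Rps2 shares its 3′ sequence with 53 other annotated genes, and Impdh2 with Ndufaf3 and Abhd11 with Abhd11os overlap on opposite strands at their ends.

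The short stretches around a CACGTG hexamer, the canonical E-box read by basic helix-loop-helix factors such as Myc, are shown. Of 8 motifs searched, this one had the share that differed most between the promoters of these ribosome genes and promoters at large, and it was picked for display on seeing that. RefSeq start-site windows of GRCm38.p6, from 250 bases before to 50 bases after the start, were matched for 17 of the 20 called and non-overlapping ribosome biogenesis genes (85.0%). The hexamer, the same on both strands, was found in 7 of the 17 (41.2%), against 7.24% of all 27025 windows. It was in 10.5% of the 9776 windows matched to tested genes, in 16.3% of the 263 matched to genes called higher without overlap and in 7.74% of the 155 matched to genes called lower. These shares describe the matched windows alone, and a check over the genes themselves is void, since 79.5% of tested genes and 79.2% of called and non-overlapping genes matched a window, both under 80%. None of these 7 overlapped a match to another motif. The others, searched on both strands, were AP-1 (TGANTCA), CRE (TGACGTCA), NF-kB (GGANTTTCC), the ISRE core (TTTCNNTTT), PU.1 (GAGGAAGT), C/EBP (TTGCNNAA) and STAT (TTCNNNGAA). They were found in at most 11.8% of the 17 windows and in 1.23% to 10.8% of all windows. In 6 of the 7 it lay within 50 bases after the start and in Nop2 it began 60 bases before it. The stretches are written 5′ to 3′ on the strand of the gene with the hexamer in capitals, and those of Utp20 and Mybbp1a end with the window.
Nop2 (chr6:125131813-125131838, plus strand): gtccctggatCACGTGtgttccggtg
Pes1 (chr11:3963967-3963992, plus strand): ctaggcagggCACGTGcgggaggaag
Wdr43 (chr17:71616222-71616247, plus strand): cccgggcgaaCACGTGgctgccgcgg
Tsr1 (chr11:74898094-74898119, plus strand): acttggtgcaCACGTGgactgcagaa
Ltv1 (chr10:13193094-13193119, minus strand): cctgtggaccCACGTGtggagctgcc
Utp20 (chr10:88826765-88826787, minus strand): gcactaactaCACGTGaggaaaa
Mybbp1a (chr11:72441357-72441376, plus strand): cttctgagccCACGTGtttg

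The genes behind these 7 stretches encode assembly and processing factors of both ribosomal subunits. Wdr43, a factor of the small subunit, was at 140.4, 138 and 101 CPM in Normal, 236, 275 and 246 CPM in NMO and 342, 344 and 386 CPM in NMO+CL. Wdr43 rose by 1.25 on the log2 scale (SE 0.17, adjusted p = 3.44e-04). Utp20, of the same pathway, was at 25.7, 24.2 and 8.58 CPM in Normal, 44.4, 53.7 and 48.8 CPM in NMO and 70.5, 64.6 and 61.01 CPM in NMO+CL. Utp20 rose by 1.54 on the log2 scale (SE 0.31, adjusted p = 0.00686). All injected libraries were above Normal for both. Mybbp1a, a nucleolar protein, was at 40.5 to 91.05 CPM in Normal and 109 to 217 CPM in the injected libraries. Nop2, an rRNA methyltransferase, was at 26.5 to 36.3 CPM in Normal and 49.6 to 81.03 CPM in the injected libraries. Pes1, of the large subunit, was at 31.1 to 37.3 CPM in Normal and 49.8 to 87.6 CPM in the injected libraries. These 3 rose by 1.28, 1.05 and 1.01 on the log2 scale (adjusted p = 0.00507, 0.0137 and 0.0105). Tsr1 and Ltv1, of late small-subunit assembly, rose by 1.05 and 0.86 (adjusted p = 0.0297 and 0.0378). A match is a stretch of letters and was not tested as a binding site. Calls of 4 of the 7 were lost on leaving out any 1 of several libraries. Nop2 was not called without Normal 2 or 3 (adjusted p = 0.0730 to 0.0960). Pes1 was not called without Normal 2 or 3 (adjusted p = 0.0670 to 0.0751). Tsr1 was not called without Normal 1, 2 or 3, NMO 1 or NMO+CL 2 (adjusted p = 0.0562 to 0.176) and with 1 injected group (adjusted p = 0.0615). Ltv1 was not called without Normal 1, 2 or 3, NMO 1, 2 or 3 or NMO+CL 2 (adjusted p = 0.0518 to 0.179), with no filter (adjusted p = 0.0553), with limma-voom (adjusted p = 0.0607), with 1 injected group (adjusted p = 0.0839) and with the replicate block (adjusted p = 0.0595).

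DNA replication and cell-cycle genes gave 7 rises and no fall of 44 tested, beside 3.2% higher and 2.51% lower over all tested genes, with a median of 0.45 and a median NMO+CL minus NMO difference of -0.01. Mcm7 (chr5:138164583-138172422), a subunit of the replicative helicase, was at 18.2, 21.7 and 10.6 CPM in Normal, 44.3, 71.7 and 48.7 CPM in NMO and 51.1, 57.4 and 79.7 CPM in NMO+CL. Mcm7 rose by 1.80 on the log2 scale (SE 0.30, adjusted p = 0.00171). Timeless, of the replication fork protection complex, was at 1.27, 2.26 and 0.505 CPM in Normal, 17.98, 7.66 and 17.6 CPM in NMO and 22.2, 12.5 and 23.2 CPM in NMO+CL. Timeless rose by 3.60 on the log2 scale (SE 0.61, adjusted p = 0.00192). Pola1, the catalytic subunit of the polymerase that primes DNA synthesis, was at 6.85, 5.72 and 4.54 CPM in Normal, 27.8, 20.9 and 24.2 CPM in NMO and 26.3, 26.1 and 13.3 CPM in NMO+CL. Pola1 rose by 2.01 on the log2 scale (SE 0.40, adjusted p = 0.00571). No injected library fell into the Normal range for these genes, and none was called between the injected groups. The helicase subunits Mcm5 (3.53 to 13.2 CPM in Normal and 17.6 to 40.3 CPM in the injected libraries) and Mcm2 (7.07 to 9.78 CPM in Normal and 16.2 to 54.6 CPM in the injected libraries) rose by 1.80 and 1.68 on the log2 scale (adjusted p = 0.0237 and 0.0210). Ccnd1, cyclin D1, rose by 0.63 (adjusted p = 0.0304). Mcm6 was called with 1 injected library inside the Normal range. Mcm6 rose by 2.27 on the log2 scale (SE 0.56, adjusted p = 0.0218). Mcm6 was not called without Normal 2 or 3 (adjusted p = 0.120 to 0.123) and with limma-voom (adjusted p = 0.0815). Timeless had a log2 fold change of 4.19 without Normal 2. Mcm5 had a log2 fold change of 2.39 without Normal 2. Mcm6 had a log2 fold change of 2.88 without Normal 1. Timeless was not called with limma-voom (adjusted p = 0.0605). Pola1 was not called without Normal 3 (adjusted p = 0.05003). Mcm5 was not called without Normal 1 or 3 (adjusted p = 0.114 to 0.146) and with limma-voom (adjusted p = 0.0585). Mcm2 was not called without Normal 1, 2 or 3 or NMO 2 (adjusted p = 0.0590 to 0.125) and with limma-voom (adjusted p = 0.0907). Ccnd1 was not called without Normal 1, 2 or 3, NMO 1 or 2 or NMO+CL 1 or 2 (adjusted p = 0.0503 to 0.170) and with 1 injected group (adjusted p = 0.0836). The 3′ ends of Timeless and Pola1 share sequence with 51 and 74 other genes, and Mcm7 with Cops6 and Ccnd1 with LTO1 overlap on opposite strands.

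Genes of lipid uptake, lysosomes and sugar breakdown gave calls in both directions. Lpl (chr8:68880491-68907448), lipoprotein lipase and a gene of disease-associated microglia, was at 21.7, 18.7 and 43.6 CPM in Normal, 242, 208 and 157 CPM in NMO and 138, 98.01 and 64.1 CPM in NMO+CL. Lpl rose by 2.35 on the log2 scale (SE 0.31, adjusted p = 2.59e-04). Cst7, another gene of that state, was at 1.91, 0.602 and 1.18 CPM in Normal, 5.03, 9.34 and 3.36 CPM in NMO and 21.01, 17.8 and 15.4 CPM in NMO+CL. Cst7 rose by 3.06 on the log2 scale (SE 0.65, adjusted p = 0.00973). Both were above Normal in all 6 injected libraries. Apoe (315 to 505 CPM in Normal, 327 to 484 in NMO and 482 to 919.6 in NMO+CL) and Spp1 (2.71 to 4.04 CPM in Normal, 1.76 to 6.72 in NMO and 6.73 to 12.5 in NMO+CL) were not called (adjusted p = 0.268 and 0.492), although NMO+CL alone was called above Normal for Apoe (log2 0.93, adjusted p = 0.0225). Trem2, a lipid receptor of that state, was at 817 to 889 CPM in Normal, 603 to 765 in NMO and 399.6 to 468 in NMO+CL. Trem2 fell by 0.62 on the log2 scale (SE 0.14, adjusted p = 0.0139). Over the 30 tested disease-associated genes 3 were called higher and 4 lower, with a median of 0.33, beside 3.2% higher and 2.51% lower over all tested genes. Serpine2, a protease inhibitor, was among the falls, at 511 to 639.5 CPM in Normal, 305 to 444 in NMO and 158 to 206 in NMO+CL. Serpine2 fell by 1.05 on the log2 scale (SE 0.16, adjusted p = 0.00105). Cst7 was not called without Normal 2 or 3 (adjusted p = 0.0579 to 0.0594) and with limma-voom (adjusted p = 0.0931). Trem2 was not called without Normal 1, 2 or 3 (adjusted p = 0.0501 to 0.0869) and with 1 injected group (adjusted p = 0.154). Serpine2 was not called with 1 injected group (adjusted p = 0.0897).

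Of the 35 tested lysosomal genes 3 were called higher and 2 lower, with a median of -0.15, beside 3.2% higher and 2.51% lower over all tested genes. Ctsc, a lysosomal protease that activates granule enzymes, was at 265, 247 and 306 CPM in Normal, 629, 671 and 401 CPM in NMO and 917, 1035 and 671 CPM in NMO+CL. Ctsc rose by 1.37 on the log2 scale (SE 0.20, adjusted p = 4.94e-04). Gusb, beta-glucuronidase, was at 80.8 to 142 CPM in Normal and 185 to 303 CPM in the injected libraries. Gusb rose by 1.11 on the log2 scale (SE 0.20, adjusted p = 0.00257). The falls were those of a protease and a lysosomal membrane protein. Ctsf, the protease, was at 109 to 145 CPM in Normal and 50.7 to 84.1 CPM in the injected libraries. Ctsf fell by 0.88 on the log2 scale (SE 0.19, adjusted p = 0.00951). Laptm5, the membrane protein, was at 2890 to 3550 CPM in Normal and 1788 to 2677 CPM in the injected libraries. Laptm5 fell by 0.53 on the log2 scale (SE 0.14, adjusted p = 0.0273). Ctsf was not called without Normal 2 or 3 (adjusted p = 0.0520 to 0.0869). Laptm5 was not called without Normal 1, 2 or 3, NMO 1 or NMO+CL 2 (adjusted p = 0.0581 to 0.191), with library totals alone (adjusted p = 0.0907) and with 1 injected group (adjusted p = 0.121). Ctsc shares its 3′ sequence with 45 other genes.

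Glycolysis gave 4 rises and 2 falls of 31 tested genes with a median of 0.20, beside 3.2% higher and 2.51% lower over all tested genes. Pkm, pyruvate kinase, was at 110.3, 109 and 115 CPM in Normal, 174, 166 and 181 CPM in NMO and 214, 259.7 and 208 CPM in NMO+CL. Pkm rose by 0.83 on the log2 scale (SE 0.16, adjusted p = 0.00542). It was above Normal in all 6 injected libraries. Ldha, lactate dehydrogenase, was at 36.8 to 48.6 CPM in Normal and 56.2 to 157 CPM in the injected libraries. Ldha rose by 1.19 on the log2 scale (SE 0.27, adjusted p = 0.0155). Gpi1, glucose phosphate isomerase, was at 45.9 to 77.8 CPM in Normal and 79.3 to 152 CPM in the injected libraries (adjusted p = 0.0340). Hk2, the hexokinase that starts the pathway, was at 522 to 635 CPM in Normal and 785 to 907 CPM in the injected libraries (adjusted p = 0.0376). Slc2a5, the fructose transporter of resting microglia, was at 569 to 630.0 CPM in Normal, 353 to 419.8 in NMO and 102 to 218 in NMO+CL. Slc2a5 fell by 1.30 on the log2 scale (SE 0.19, adjusted p = 6.46e-04). The other fall was that of Hk3. Slc2a5 was not called with 1 injected group (adjusted p = 0.114). Ldha was not called without Normal 1, 2 or 3 (adjusted p = 0.0509 to 0.110). Gpi1 was not called without Normal 1, 2 or 3, NMO 1 or NMO+CL 2 (adjusted p = 0.0504 to 0.238) and with 1 injected group (adjusted p = 0.124). Hk2 was not called without Normal 1, 2 or 3, NMO 1, 2 or 3 or NMO+CL 1 or 2 (adjusted p = 0.0508 to 0.188), with 1 injected group (adjusted p = 0.109) and with the replicate block (adjusted p = 0.0512). In fatty acid synthesis Acaca (4.54 to 10.8 CPM in Normal and 13.3 to 27.7 CPM in the injected libraries) and Fasn were called higher and the other 30 of 32 tested were not called, beside 3.2% higher and 2.51% lower over all tested genes. Acaca rose by 1.57 on the log2 scale (SE 0.40, adjusted p = 0.0280). Acaca was not called without Normal 1 or 3 or NMO+CL 2 (adjusted p = 0.0591 to 0.169), with limma-voom (adjusted p = 0.0696) and with 1 injected group (adjusted p = 0.0616). The 3′ ends of Acaca and Ldha share sequence with 132 and 88 other genes.

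**Figure D4:**
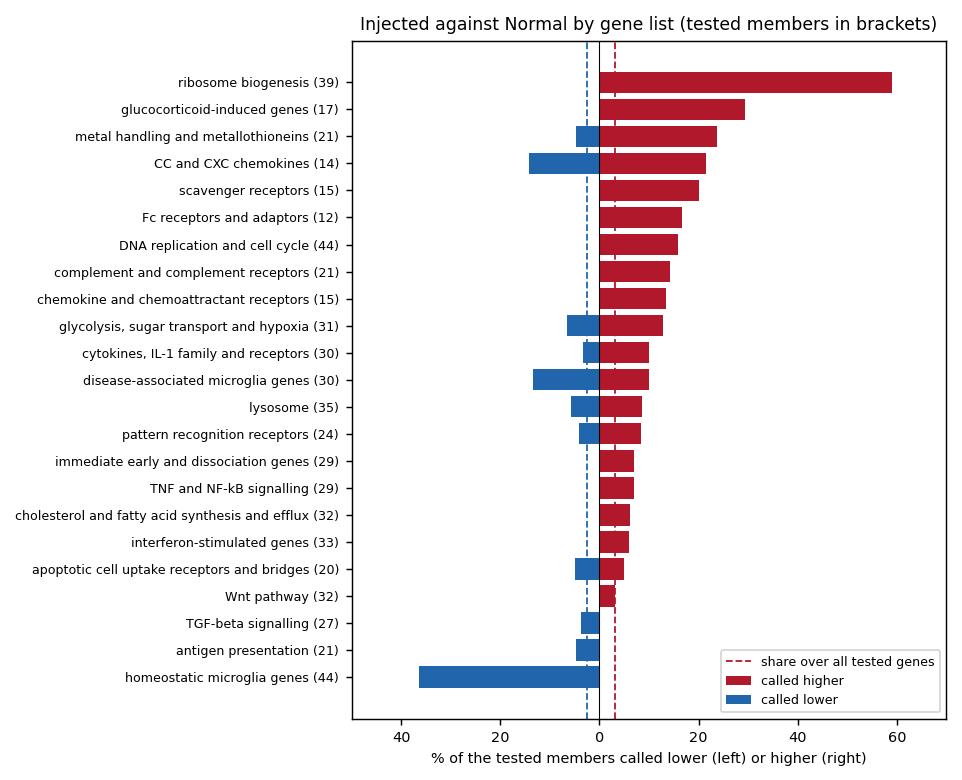
Bars give the percentage of the tested members of 23 gene lists called higher (red, right) or lower (blue, left) in injected against Normal libraries, with the number of tested members in brackets and dashed lines at the 3.2% and 2.51% found over all tested genes. Ribosome biogenesis has the longest red bar and homeostatic microglia genes the longest blue bar.

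Several further genes were among the largest single rises, and of those described next only Cd300lf is in a list, that of genes for the uptake of dying cells. Inf2, a formin that remodels actin, was at 0.637, 0 and 0 CPM in Normal, 4.27, 0.958 and 7.52 CPM in NMO and 20.6, 53.3 and 17.1 CPM in NMO+CL, with at most 4 reads in a Normal library. Inf2 rose by 5.62 on the log2 scale (SE 1.00, adjusted p = 0.00277). Cd300lf, an inhibitory receptor that binds lipids on dying cells, was at 0.956, 2.71 and 3.03 CPM in Normal, 11.2, 6.94 and 3.84 CPM in NMO and 74.9, 205 and 111 CPM in NMO+CL. Cd300lf rose by 3.79 on the log2 scale (SE 0.47, adjusted p = 1.62e-04). Sema6b, a transmembrane semaphorin, was at 0.637, 1.20 and 1.68 CPM in Normal, 4.02, 8.26 and 6.56 CPM in NMO and 46.3, 41.3 and 30.4 CPM in NMO+CL. Sema6b rose by 3.73 on the log2 scale (SE 0.50, adjusted p = 3.05e-04). For these 3 genes both injected groups lay above Normal. Against Normal the log2 fold change was 4.20 in NMO and 7.04 in NMO+CL for Inf2, 1.72 in NMO and 5.86 in NMO+CL for Cd300lf and 2.41 in NMO and 5.05 in NMO+CL for Sema6b. In NMO alone only Sema6b of the 3 was called (adjusted p = 0.0837, 0.162 and 0.0479 in that order). The NMO+CL minus NMO difference was called for Cd300lf (4.14, adjusted p = 2.18e-04) and Sema6b (2.64, adjusted p = 0.00835) but not for Inf2 (adjusted p = 0.0926). Lilrb4a, an inhibitory immunoglobulin-like receptor of myeloid cells, was at 6.85, 0 and 3.87 CPM in Normal, 28.8, 15.4 and 17.1 CPM in NMO and 99.7, 71.1 and 45.8 CPM in NMO+CL. Lilrb4a rose by 3.43 on the log2 scale (SE 0.65, adjusted p = 0.00421). Adam8, a membrane protease of activated leukocytes, was at 0.637, 3.31 and 0.505 CPM in Normal, 19.6, 11.01 and 4.48 CPM in NMO and 27.7, 39.9 and 13.6 CPM in NMO+CL. Adam8 rose by 3.55 on the log2 scale (SE 0.71, adjusted p = 0.00605). No injected library of either gene fell into the Normal range. Cpd, carboxypeptidase D, rose alike in both groups, at 71.7, 53.3 and 48.6 CPM in Normal, 255, 169 and 169 CPM in NMO and 304, 198 and 142 CPM in NMO+CL. Cpd rose by 1.83 on the log2 scale (SE 0.25, adjusted p = 3.69e-04), with an NMO+CL minus NMO interval of -0.44 to 0.68. Inf2 was not called with limma-voom (adjusted p = 0.108). Cd300lf was not called with limma-voom (adjusted p = 0.0595). Adam8 was not called with limma-voom (adjusted p = 0.0934). Inf2 had a log2 fold change of 6.23 with 1 injected group and 9.27 without Normal 1. With no read in Normal 2 and 3, a fitted value for Inf2 without Normal 1 depends on the prior count. Cd300lf had a log2 fold change of 4.93 with 1 injected group. Lilrb4a had a log2 fold change of 4.94 with limma-voom, 4.34 without Normal 1 and 2.84 without Normal 2. Adam8 had a log2 fold change of 4.92 without Normal 2. The 3′ end of Cd300lf shares sequence with 86 other genes, and that of Lilrb4a with 3, Lilr4b among them.

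Of 44 homeostatic microglia genes tested, 16 were called lower and none higher, against 2.51% lower over all genes, with a median of -0.43. Their summed level was 82690, 86940 and 89070 CPM in Normal, 69200, 75560 and 71580 CPM in NMO and 48120, 44540 and 51860 CPM in NMO+CL. Every injected library was below every Normal library in the sum, and every NMO+CL library was below every NMO library. Of the 16, 11 were also called lower in NMO+CL than in NMO. P2ry12 (chr3:59216272-59262871), the receptor for ADP that guides microglial processes and on which the cells were sorted, was at 2608, 2055 and 2665 CPM in Normal, 1756, 1558 and 1630 CPM in NMO and 449, 266 and 344 CPM in NMO+CL. P2ry12 fell by 1.68 on the log2 scale (SE 0.15, adjusted p = 1.69e-05). Gpr34, a receptor for lysophosphatidylserine, was at 971, 684 and 871 CPM in Normal, 613, 564 and 579 CPM in NMO and 112, 83.1 and 143 CPM in NMO+CL. Gpr34 fell by 1.71 on the log2 scale (SE 0.17, adjusted p = 2.77e-05). Siglech, a microglial lectin that binds sialic acid, was at 1236, 1432 and 1403 CPM in Normal, 715, 811 and 693 CPM in NMO and 324, 273 and 392 CPM in NMO+CL. Siglech fell by 1.46 on the log2 scale (SE 0.14, adjusted p = 2.77e-05). In these 3 genes NMO lay between Normal and NMO+CL with no overlap. Against Normal the log2 fold changes were -0.57 in NMO and -2.79 in NMO+CL for P2ry12, -0.52 in NMO and -2.90 in NMO+CL for Gpr34 and -0.88 in NMO and -2.04 in NMO+CL for Siglech. In NMO alone, of these 3 only that of Siglech was called (adjusted p = 0.255, 0.398 and 0.0287). Exons of P2ry12 overlap exons of Med12l on the other strand, and the 3′ end of Siglech shares sequence with 29 other genes.

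Upk1b, a tetraspanin of resting microglia, had the largest fall of the list, at 70.9, 79.3 and 109 CPM in Normal, 39.5, 49.1 and 33.1 CPM in NMO and 11.5, 4.70 and 0.160 CPM in NMO+CL. Upk1b fell by 2.53 on the log2 scale (SE 0.47, adjusted p = 0.00381). Crybb1, a crystallin of microglia, was at 114, 96.6 and 84.1 CPM in Normal, 53.4, 60.8 and 59.9 CPM in NMO and 24.1, 19.9 and 30.6 CPM in NMO+CL. Crybb1 fell by 1.37 on the log2 scale (SE 0.20, adjusted p = 6.46e-04). Olfml3, a secreted matrix protein, was at 851 to 1317 CPM in Normal, 759 to 778 in NMO and 379.6 to 498 in NMO+CL. Olfml3 fell by 0.83 on the log2 scale (SE 0.16, adjusted p = 0.00390). Cst3, cystatin C, an abundant protease inhibitor, was at 22529 to 24649 CPM in Normal, 17268 to 19630 in NMO and 6806 to 11864 in NMO+CL. Cst3 fell by 0.82 on the log2 scale (SE 0.13, adjusted p = 0.00152). Each had its NMO libraries below Normal and its NMO+CL libraries lower still. In NMO alone none of them was called against Normal (adjusted p = 0.579, 0.232, 0.449 and 0.575 in that order). Sall1, the transcription factor that holds microglial identity, was at 441, 347 and 386 CPM in Normal, 344, 343 and 241 CPM in NMO and 219, 159 and 246 CPM in NMO+CL, with NMO 1 and NMO 2 within 5 CPM of the lowest Normal library. Sall1 fell by 0.63 on the log2 scale (SE 0.18, adjusted p = 0.0454). Sall1 was not called without Normal 1, 2 or 3, NMO 1 or 3 or NMO+CL 1 or 2 (adjusted p = 0.0513 to 0.213), with library totals alone (adjusted p = 0.101), with 1 injected group (adjusted p = 0.189) and with the replicate block (adjusted p = 0.0512). Upk1b had a log2 fold change of -1.90 with 1 injected group and -3.11 without NMO+CL 1.

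The other 28 homeostatic genes were not called, and 24 of them overlapped between injected and Normal libraries. Tmem119 was at 2504 to 3451 CPM in Normal, 2774 to 3419 in NMO and 2118 to 3093 in NMO+CL (adjusted p = 0.597). The fractalkine receptor gene Cx3cr1 was at 10739 to 12549 CPM in Normal, 9472 to 12791 in NMO and 6898 to 10018 in NMO+CL (adjusted p = 0.212), and NMO+CL alone was called below Normal (log2 -0.54, adjusted p = 0.0378). Csf1r, the growth factor receptor on which microglia depend, was at 8514 to 11808 CPM in Normal, 6398 to 8056 in NMO and 4650 to 9283 in NMO+CL (adjusted p = 0.118). Of the 16 called, the purine receptor P2ry13 was lower (-0.66, adjusted p = 0.0332) although NMO and Normal overlapped (1521 to 2593 CPM in Normal, 1578 to 1675 in NMO and 813 to 1287 in NMO+CL). P2ry13 was not called without Normal 2 or 3, NMO 1 or NMO+CL 1 or 2 (adjusted p = 0.0569 to 0.307), with library totals alone (adjusted p = 0.0880) and with 1 injected group (adjusted p = 0.237). With 1 injected group the calls of P2ry12, Gpr34, Upk1b, Crybb1, Slc2a5, Olfml3 and Cst3 ended, since that fit counts the gap between NMO and NMO+CL as spread. Olfml3 was not called without Normal 3 (adjusted p = 0.0529) and with 1 injected group (adjusted p = 0.102).

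**Figure D5:**
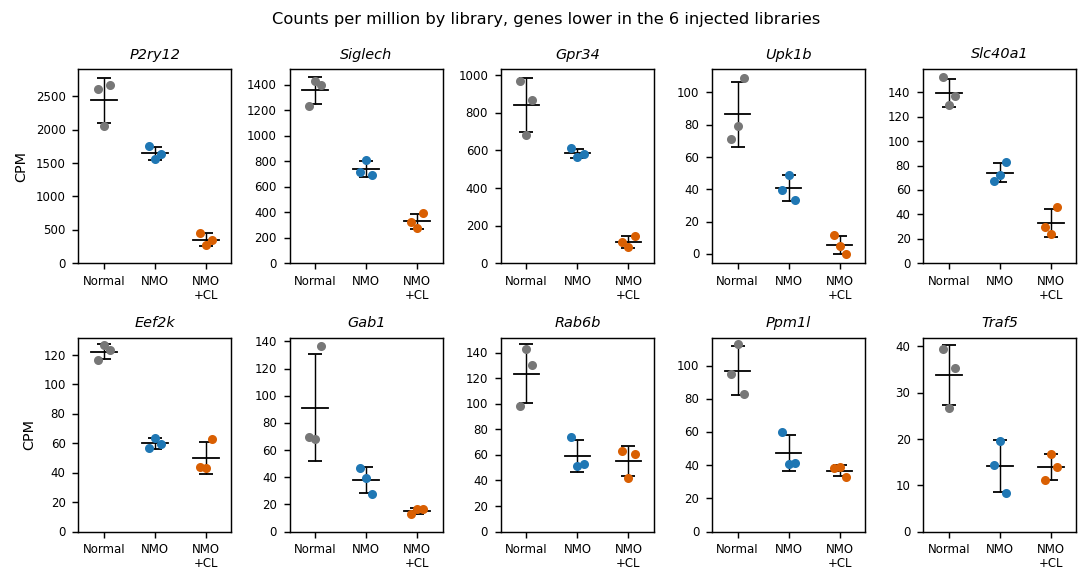
CPM by library for 10 genes lower in the injected libraries, 1 panel per gene with its own axis; points are libraries, bars the group mean and whiskers 1 SD (n = 3). In the upper row NMO+CL (orange) lies well below NMO (blue), while in Eef2k, Rab6b, Ppm1l and Traf5 both injected groups lie at about the same level below Normal (grey).

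A smaller set of genes fell alike in both injected groups, that is, with the interval of NMO+CL minus NMO within 1 log2 unit. Eef2k (chr7:120842831-120907450), the kinase that inhibits translation elongation, was at 117, 127 and 124 CPM in Normal, 56.8, 63.8 and 59.2 CPM in NMO and 44.1, 43.3 and 62.6 CPM in NMO+CL. Eef2k fell by 1.16 on the log2 scale (SE 0.18, adjusted p = 0.00126). Ppm1l, a protein phosphatase of stress kinases, was at 95.1, 113 and 83.1 CPM in Normal, 60.1, 40.8 and 41.3 CPM in NMO and 38.1, 38.7 and 32.7 CPM in NMO+CL. Ppm1l fell by 1.22 on the log2 scale (SE 0.21, adjusted p = 0.00192). Rab6b, a small GTPase of Golgi transport, was at 98.5, 143 and 130.1 CPM in Normal, 73.9, 51.2 and 53.2 CPM in NMO and 62.9, 41.6 and 60.7 CPM in NMO+CL. Rab6b fell by 1.11 on the log2 scale (SE 0.21, adjusted p = 0.00388). Against Normal the log2 fold changes were -1.03 in NMO and -1.29 in NMO+CL for Eef2k, -1.03 in NMO and -1.41 in NMO+CL for Ppm1l and -1.06 in NMO and -1.17 in NMO+CL for Rab6b. Intervals of the NMO+CL minus NMO difference were -0.73 to 0.21, -0.90 to 0.14 and -0.63 to 0.41. All 3 were called under each of the 18 alternatives tried. Other genes of this kind were at lower levels or lost their call. Traf5, an adaptor of TNF receptors, was at 26.6 to 39.4 CPM in Normal and 8.33 to 19.5 CPM in the injected libraries. Sp4, a transcription factor, was at 34.01 to 57.04 CPM in Normal and 11.5 to 24.01 CPM in the injected libraries. Xpa, a DNA repair factor, was at 35.2 to 38.1 CPM in Normal and 12.96 to 20.98 CPM in the injected libraries. Tbc1d23, of endosome transport, was at 56.4 to 115 CPM in Normal and 17.8 to 52.1 CPM in the injected libraries. These 4 had log2 fold changes from -1.26 to -1.13 and adjusted p from 0.0197 to 0.0363. Each call was lost on leaving out any 1 of several libraries. Traf5 was not called without Normal 1, 2 or 3 or NMO 1 (adjusted p = 0.0569 to 0.164), with library totals alone (adjusted p = 0.0525) and with 1 injected group (adjusted p = 0.0544). Sp4 was not called without Normal 1 or 3 or NMO+CL 2 (adjusted p = 0.0508 to 0.168). Xpa was not called without Normal 1, 2 or 3, NMO 1 or NMO+CL 2 (adjusted p = 0.0619 to 0.126). Tbc1d23 was not called without Normal 1, 2 or 3, NMO 1 or NMO+CL 1 or 2 (adjusted p = 0.0586 to 0.330), with library totals alone (adjusted p = 0.0608) and with 1 injected group (adjusted p = 0.0716). Tbc1d23 shares its 3′ sequence with 92 other genes.

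The widest gaps on the lower side, measured between the nearest injected and the nearest Normal library, were those of Eef2k, Tmem71, Igf2bp2, Bcdin3d and Bsdc1. Tmem71 was at 20.4 to 33.5 CPM in Normal and 2.88 to 11.9 CPM in the injected libraries (adjusted p = 0.0114). Igf2bp2, an RNA-binding protein, was at 19.4 to 27.3 CPM in Normal and 4.96 to 8.86 CPM in the injected libraries (adjusted p = 0.0114). Bcdin3d, an RNA methyltransferase, was at 25.02 to 27.99 CPM in Normal and 9.93 to 14.6 CPM in the injected libraries (adjusted p = 0.0305). Bsdc1 was at 15.7 to 17.5 CPM in Normal and 0 to 8.14 CPM in the injected libraries and was not called (log2 fold change -2.01, adjusted p = 0.110). Tmem71 was not called without Normal 1 or 2 (adjusted p = 0.0560 to 0.0937). Igf2bp2 was not called without Normal 3 (adjusted p = 0.118). Bcdin3d was not called without Normal 1, 2 or 3 or NMO 1 or 2 (adjusted p = 0.0555 to 0.148), with library totals alone (adjusted p = 0.0526), with no filter (adjusted p = 0.0533) and with 1 injected group (adjusted p = 0.0557). A wide gap and a small adjusted p were thus not the same thing at these read counts.

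The largest falls by fold change were larger in NMO+CL than in NMO by point value. Of the 12 largest without overlap, that difference was called for Tmc7, Upk1b, Hsf2bp and Gprasp2 only. Gab1, a docking protein of growth factor receptors, was at 69.5, 67.9 and 136 CPM in Normal, 46.5, 39.3 and 27.4 CPM in NMO and 12.7, 16.7 and 16.3 CPM in NMO+CL. Gab1 fell by 1.93 on the log2 scale (SE 0.26, adjusted p = 3.12e-04) and was called under each of the 18 alternatives. Tmc7, a channel-like membrane protein, was at 28.8, 28.3 and 31.3 CPM in Normal, 20.5, 5.27 and 18.6 CPM in NMO and 1.02, 2.27 and 0 CPM in NMO+CL. Tmc7 fell by 2.86 on the log2 scale (SE 0.56, adjusted p = 0.00516). Gprasp2, which sorts receptors for degradation, was at 40.8, 72.1 and 41.9 CPM in Normal, 12.8, 38.4 and 28.8 CPM in NMO and 5.84, 4.37 and 6.57 CPM in NMO+CL. Gprasp2 fell by 2.08 on the log2 scale (SE 0.33, adjusted p = 0.00127). Eps8l1, an actin regulator, was at 75.7, 61.9 and 44.1 CPM in Normal, 21.9, 6.46 and 39.2 CPM in NMO and 5.11, 5.51 and 10.9 CPM in NMO+CL. Eps8l1 fell by 2.25 on the log2 scale (SE 0.40, adjusted p = 0.00307). In these genes every NMO library was below Normal. NMO alone was not called for Gab1, Tmc7, Gprasp2 or Eps8l1 (adjusted p = 0.0866, 0.700, 0.449 and 0.287). NMO+CL was lower again with a call for Tmc7 and Gprasp2 (log2 difference -3.73 and -2.25). That difference was not called for Gab1 and Eps8l1 (adjusted p = 0.0513 and 0.135). The calls of Tmc7, Gprasp2 and Eps8l1 ended with 1 injected group. Tmc7 had a log2 fold change of -3.45 with limma-voom and -1.89 with 1 injected group.

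In the other 6 large falls every NMO library was likewise below every Normal library. NMO alone was called against Normal in none of them (adjusted p from 0.519 to 0.807). The NMO+CL minus NMO difference was called for Hsf2bp (adjusted p = 0.0413) and not for the rest (adjusted p from 0.0775 to 0.447). Hsf2bp was at 16.7 to 18.8 CPM in Normal, 7.54 to 10.2 in NMO and 0.486 to 2.40 in NMO+CL. Hsf2bp fell by 2.43 on the log2 scale (SE 0.50, adjusted p = 0.00770). Arhgef10l was at 12.4 to 31.8 CPM in Normal, 3.36 to 11.9 in NMO and 0.730 to 2.40 in NMO+CL. Arhgef10l fell by 2.49 on the log2 scale (SE 0.53, adjusted p = 0.0100). Ccng2, an unconventional cyclin, was at 54.9 to 116 CPM in Normal, 34.6 to 46.9 in NMO and 1.28 to 20.9 in NMO+CL. Ccng2 fell by 2.05 on the log2 scale (SE 0.47, adjusted p = 0.0151). Rnf180, a ubiquitin ligase, was at 18.2 to 20.3 CPM in Normal, 4.79 to 12.8 in NMO and 0 to 2.43 in NMO+CL. Rnf180 fell by 2.35 on the log2 scale (SE 0.62, adjusted p = 0.0304). Gramd4 was at 15.95 to 24.9 CPM in Normal, 6.08 to 10.2 in NMO and 0.486 to 6.42 in NMO+CL. Gramd4 fell by 2.22 on the log2 scale (SE 0.56, adjusted p = 0.0268). Dusp27 was at 10.99 to 25.97 CPM in Normal, 3.20 to 10.7 in NMO and 1.46 to 5.35 in NMO+CL. Dusp27 fell by 2.01 on the log2 scale (SE 0.55, adjusted p = 0.0385). Each of these calls could be lost. Hsf2bp was not called without Normal 3 (adjusted p = 0.0566) and with 1 injected group (adjusted p = 0.204). Arhgef10l was not called without Normal 3 (adjusted p = 0.164) and with 1 injected group (adjusted p = 0.178). Ccng2 was not called without Normal 3 (adjusted p = 0.151), with the DESeq2 Wald test (adjusted p = 0.0598) and with 1 injected group (adjusted p = 0.189). Rnf180 was not called without Normal 1, 2 or 3 or NMO 1 (adjusted p = 0.0565 to 0.135) and with 1 injected group (adjusted p = 0.335). Gramd4 was not called without Normal 1, 2 or 3 or NMO 1 (adjusted p = 0.0562 to 0.142) and with 1 injected group (adjusted p = 0.119). Dusp27 was not called without Normal 1, 2 or 3, NMO 1 or NMO+CL 1 or 3 (adjusted p = 0.0506 to 0.273), with library totals alone (adjusted p = 0.0557) and with 1 injected group (adjusted p = 0.132). Hsf2bp had a log2 fold change of -1.84 with 1 injected group. Ccng2 had a log2 fold change of -2.86 without NMO+CL 1. Rnf180 had a log2 fold change of -1.71 with 1 injected group. Gramd4 had a log2 fold change of -3.02 without NMO+CL 1.

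Of 17 glucocorticoid-induced genes 5 were called higher (Fkbp5, Per1, Ddit4, Nfkbia, Il1r2) and none lower, against 3.2% higher over all genes, with a median of 0.66. The medians were 0.233 in NMO and 1.15 in NMO+CL, and 6 of the 17 were called higher in NMO+CL than in NMO, 3 of them among the 5 called against Normal. Fkbp5, a chaperone partner of the glucocorticoid receptor, was at 25.5, 39.7 and 40.05 CPM in Normal, 44.5, 48.1 and 53.5 CPM in NMO and 164, 184 and 134 CPM in NMO+CL. Fkbp5 rose by 1.33 on the log2 scale (SE 0.22, adjusted p = 0.00152). Against Normal the log2 fold change was 0.47 in NMO and 2.19 in NMO+CL (NMO+CL minus NMO 1.72, adjusted p = 0.00178). NMO alone was not called against Normal (adjusted p = 0.576). Fkbp5 was not called with 1 injected group (adjusted p = 0.0849).

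The remaining lists held 1 or 2 calls each, beside 3.2% higher and 2.51% lower over all tested genes. Of 20 genes for the uptake of dying cells, Cd300lf was called higher and Elmo1, which activates Rac during engulfment, lower (119.8 to 144 CPM in Normal, 82.9 to 109 in NMO and 32.7 to 34.3 in NMO+CL). Elmo1 fell by 1.22 on the log2 scale (SE 0.17, adjusted p = 4.79e-04). Elmo1 was not called with 1 injected group (adjusted p = 0.155). TGF-beta signalling gave 1 fall (Tgfbr1) of 27 tested with a median of -0.23. The Wnt pathway gave 1 rise (Ccnd1) of 32 with a median of -0.28, and antigen presentation 1 fall (Psmb9) of 21 with -0.28. Immediate early genes gave 2 rises (Ier2, Ier3) of 29 with a median of -0.15 and chemoattractant receptors 2 rises (C5ar1, C3ar1) of 15 with 0.04. Ier2 rose by 1.15 on the log2 scale (SE 0.31, adjusted p = 0.0385). Ier2 was not called without Normal 1, 2 or 3, NMO 1 or 2 or NMO+CL 2 (adjusted p = 0.0664 to 0.200), with limma-voom (adjusted p = 0.0654), with 1 injected group (adjusted p = 0.0649) and with the replicate block (adjusted p = 0.0633). The leukocyte genes Ptprc, which encodes CD45 (368 to 465 CPM in Normal and 412 to 631 CPM in the injected libraries), and Itgam, which encodes CD11b (567 to 781 CPM in Normal and 492 to 787 CPM in the injected libraries), both sort markers, were not called (adjusted p = 0.654 and 0.650). The monocyte gene Ly6c2 was at 0 to 4.78 CPM in Normal and 2.39 to 5.60 CPM in the injected libraries and was not called (adjusted p = 0.685).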

How the data were processed

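Microglia libraries were made with the QuantSeq 3′ kit, so reads pile up at the ends of transcripts. The authors aligned reads to mm10 with Bowtie2 and counted unique and multiple alignments with bedtools, per the labels and the study's methods; versions, annotation and strand use are not given in the sources used here. The deposited values are raw read counts per gene symbol, 1 table per library, with 23282 entries; 79 entries of 35 repeated symbols were summed, leaving 23238 symbols. The symbols matched GENCODE M21 (GRCm38) for 22197, which gave the coordinates and overlaps.

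Genes were kept with filterByExpr (minimum count 10, minimum total 15), scaled with TMM and fitted with edgeR 4.0.16 in R 4.3.3, with 1 coefficient per group. The contrast was the mean of NMO and NMO+CL minus Normal, and Benjamini-Hochberg adjustment ran over all 12292 tested genes, two-sided. NMO+CL minus NMO and each group minus Normal came from the same fit. The common biological coefficient of variation was 0.519. In data simulated for this comparison over 11637 genes, 120 of 184 tested 4-fold changes were recovered (60% of the 200 made), with 6 false calls of 126. Sets of called genes and lists were described by counts and medians, with no set test.

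Members and gene lists were chosen with earlier results of these data known. Genes were named by rule: the 12 largest rises and falls with no overlap and a mean count of at least 50; the 8 largest of each whose NMO+CL minus NMO interval lay within 1 log2 unit; up to 6 per list; a fixed set of genes whatever their result; the 5 widest gaps each way; and the boundary. The genes behind the printed sequences, and Ncl, Npm1, Fcgr4, C5ar2, Meg3, Mcm6, P2ry13, Cst3 and members of small counts given without values, were named after their values were seen. Sequence sharing at 3′ ends was searched with BLAST 2.17.0 over the last 500 bases of transcripts (at least 75 bases at 95% identity). Replicate pairs within a group differed by 21.9 to 51.1 in chi-square per degree of freedom, so none was a copy. A fit with the replicate number as a block, DESeq2, limma-voom, other scalings and filters, 1 injected group and leaving out each library were tried as alternatives. No covariate was used, and no batch is named in the labels. A few genes that the naming rule picked are not reported here.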

Additional observations from a re-analysis of the deposited data

Results flagged for a closer look

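Over the 6 injected libraries, 1 library stood far from the other 5 for Inf2 (NMO+CL 2, 53.3 CPM), Il1r2 (NMO+CL 2, 118 CPM), Ppm1l (NMO 1, 60.1 CPM), Mcm2 (NMO 2, 54.6 CPM), Impdh2 (NMO+CL 1, 37.1 CPM) and Yipf4 (NMO 2, 31.4 CPM), by Dixon's criterion, which chance meets in about 1 of 20 groups.

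The change against Normal differed between NMO+CL and NMO for the following genes, by the test of NMO+CL minus NMO over all genes with the same Normal libraries. No clodronate group without injection was analysed here. The level was higher in NMO+CL than in NMO for Msr1 (log2 difference 1.79), Il1r2 (4.45), Cd300lf (4.14), Sema6b (2.64), C4b (2.34), Il4ra (1.27), C5ar1 (1.10), Fkbp5 (1.72) and Fcgr4 (2.16). It was lower in NMO+CL than in NMO for Tmc7 (-3.73), Upk1b (-2.88), Hsf2bp (-2.78), Gprasp2 (-2.25), Gpr34 (-2.37), P2ry12 (-2.22), Siglech (-1.16), Crybb1 (-1.22), Slc2a5 (-1.41), Serpine2 (-1.05), Slc40a1 (-1.17), Elmo1 (-1.51), Olfml3 (-0.77), Cst3 (-1.01), Sft2d2 (-1.44), Tmem86a (-0.88) and Ccl7 (-3.56). For Ccl7 neither injected group alone was called against Normal.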

How the results depend on the processing

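Calls numbered 393 higher and 309 lower, 528 of them without overlap, and 134 were also called between NMO+CL and NMO. With no filter, 468 were called lower and 281 also between the injected groups, and DESeq2's Wald test gave 248 of the latter. Fitting the 6 injected libraries as 1 group gave 197 higher, 37 lower and 224 without overlap. Leaving out 1 library at a time gave 171 to 455 higher, 104 to 385 lower, 259 to 646 without overlap and 38 to 156 also called between the injected groups, the lowest without Normal 3 for all but the last and without NMO+CL 2 for the last. The replicate block gave 387, 306, 507 and 134. Deviations of same-numbered libraries correlated at -0.0164 to 0.0302, which cannot exclude a replicate effect on a smaller set of genes. The Rn45s share was highest in replicate 1 of every group, at 31.0% (untreated), 21.6% (NMO) and 26.7% (with clodronate). The neutrophil marker sum was lowest in replicate 2 of every group. Genes detected peaked in replicate 3 of the untreated group, replicate 1 of NMO and replicate 2 of NMO+CL. Whether same-numbered libraries were handled together was not tested. The numbers of calls stayed within 1.5 times under DESeq2 size factors, library totals alone and a table without Rn45s. The same held for a mean count of at least 50, limma-voom and the block. DESeq2 gave no adjusted p for Meg3. Of the 114 called genes named with values, 40 were called under all 18 alternatives and none reversed. The uncalled Cd36 turned from -0.27 to 0.10 without Normal 1 and to 0.02 without NMO 1, and ranged from -2.07 to 0.10 when 1 library was left out. The uncalled C5ar2 turned from 0.11 to -0.052 without NMO 2, the lowest of a range up to 0.25. Leaving out a library leaves fewer samples to fit, and the cause of the other shifts was not tested. In data simulated with the depths and numbers of these libraries, 4-fold changes were recovered in 60% of cases, and no other depth was simulated.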
